A study of Homo sapiens with 6 samples.

Results

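The genes described here are the nuclear-encoded subunits of the mitochondrial respiratory chain and ATP synthase, 79 of the 18417 genes tested. They were taken by a rule on symbols: NDUFA, NDUFB, NDUFC, NDUFS and NDUFV genes for complex I, SDHA to SDHD for complex II, UQCR genes and CYC1 for complex III, the COX4 to COX8 genes for complex IV, and ATP5 genes for complex V. The members, and the other lists used below, were chosen with earlier results of these data known. Genes found only in probe sets that list several symbols (ATP5F1E, NDUFC2, NDUFS5 and UQCRHL) were not analysed here. The 79 genes comprise 33 genes of complex I, 3 of complex II, 8 of complex III, 17 of complex IV and 18 of complex V.

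The arrays measured 3 samples labelled RB-deficient and 3 labelled RB-proficient. Both groups were MCF10A cells, an established non-tumorigenic line of human mammary epithelium, and both carried ErbB2, a receptor tyrosine kinase, as named in the series. RB is the retinoblastoma protein, which holds back E2F transcription factors. All cells had grown for 7 days in 3-D culture in a reconstituted membrane and were lysed together with the gel, and the labels give the tags miRB and miNS in the titles but do not spell them out or say how RB was removed, how many clones were used or whether replicates were separate cultures, so the p-values measure only a spread that may be technical.

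The respiratory chain sits in the inner mitochondrial membrane. Complex I takes electrons from NADH and complex II takes them from succinate. Ubiquinone carries them to complex III and cytochrome c carries them on to complex IV, which reduces oxygen. Complexes I, III and IV pump protons, and complex V, the ATP synthase, lets the protons back to make ATP. A few core subunits hold the redox centres or catalytic sites, and many smaller accessory subunits surround them. Some core subunits of complexes I, III, IV and V are encoded by mitochondrial DNA and are not among the genes described here.

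Values are log2 intensities, scaled so that all arrays share a median over their probe sets, and 0 is the floor. Differences are RB-deficient minus RB-proficient on the log2 scale, with n = 3 arrays per group. Intensities of different genes come from different probes and are not compared with each other. RB1, which encodes RB, read 3.45, 5.09 and 6.04 in samples labelled RB-deficient, against 7.01, 5.77 and 7.65 in the RB-proficient arrays. The groups overlapped for RB1 (difference −1.95, SE 0.76, limma adjusted p 0.302), so the RB state rests on the labels. Array RB-deficient 3, the one above an RB-proficient array for RB1, also stood nearer to the other group: across all genes its correlations were 0.713 and 0.753 with RB-deficient 1 and 2, and 0.882, 0.872 and 0.832 with RB-proficient 1 to 3. RB-deficient 1 and 2 correlated at 0.673 and the RB-proficient arrays at 0.901 to 0.924. Over all genes, 58.6% had a difference below 0 and the median difference was −0.21. The share of genes at the floor reached 4.71%, 1.62% and 0.684% in RB-deficient samples 1 to 3, and between 0.326% and 0.684% in the RB-proficient arrays. The usual controls were low as well: ACTB differed by −1.92 (SE 0.50) and GAPDH by −1.23 (SE 0.47), both without overlap and with limma adjusted p of 0.213 and 0.302. Of 11 mammary epithelial markers, 9 were measured and 8 of these lay above the median gene. Their summed intensity was 2092 to 2856 in the RB-deficient arrays and 3375 to 5976 in the RB-proficient arrays. Of the 9 genes, 8 were lower (88.9%, against 58.6% of all genes), 5 of them without overlap. ERBB2, the gene of the ErbB2 receptor, was among these 5 (difference −1.31, SE 0.48). KRT5 differed by −2.40 with overlap and read 11.65 in RB-proficient 3. EPCAM was higher without overlap (0.24), at 10.08 to 10.39 in the RB-deficient arrays and 9.99 to 10.06 in the RB-proficient arrays. The 7 fibroblast markers summed to 142 to 285 in the RB-deficient arrays and 142 to 197 in the RB-proficient arrays, and the 5 measured leukocyte markers summed to 111 to 135 in the RB-deficient arrays and 117 to 128 in the RB-proficient arrays. The sums of 5 endothelial markers lay apart, at 307 to 360 in the RB-deficient arrays and 477 to 598 in the RB-proficient arrays. Most of each sum came from CDH5, at 7.82 to 8.29 in the RB-deficient arrays and 8.70 to 9.10 in the RB-proficient arrays. Of the 5 genes, 3 were lower and 2 higher, among the latter VWF (0.57), and 1 of the 5 lay above the median gene. Whether any endothelial cells were present was not tested. Those of 5 muscle markers were 98.5 to 142 in the RB-deficient arrays and 141 to 188 in the RB-proficient arrays. What part these shifts have in the values below was not tested, and fewer cells of a type cannot be told apart from less RNA per cell.

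RefSeq promoters were available for 66 of the 79 genes, and the 250 bases before the first listed start were searched on both strands. NRF1 and the ETS factor GABP are known activators of respiratory chain genes, and E2F factors are the partners of RB. The NRF1 motif, GCGCA followed by any base and GCGC, occurred in 14 of 66 promoters (21.2%), against 8.00% of the 14239 promoters of genes measured here and 5.07% of all 35116 promoters. CCGGAAG, an ETS motif, occurred in 16 (24.2%), against 12.1% of promoters of measured genes and 8.52% of all. The E2F forms TTTCGCGC, TTTGGCGC and TTTCCCGC occurred in 6 (9.09%), against 3.24% of promoters of measured genes and 2.32% of all. These matches describe letters and not occupied sites. Below are the 250 bases of 4 genes on RefSeq's GRCh38.p14, chosen to show each case: NDUFV1 (chr11:67606686-67606935, plus strand), the complex I gene with the largest difference, with none of the motifs; NDUFS3 (chr11:47578824-47579073, plus strand), with 2 ETS motifs at 102 to 96 and 83 to 77 bases before the start; UQCRC1 (chr3:48609647-48609896, minus strand), the complex III gene with the largest difference, with an NRF1 motif at 47 to 38 bases; and COX7C (chr5:86617691-86617940, plus strand), with an E2F motif at 134 to 127 bases. Each is written along its gene's strand with the motif in capitals, on whichever strand it was found.
NDUFV1: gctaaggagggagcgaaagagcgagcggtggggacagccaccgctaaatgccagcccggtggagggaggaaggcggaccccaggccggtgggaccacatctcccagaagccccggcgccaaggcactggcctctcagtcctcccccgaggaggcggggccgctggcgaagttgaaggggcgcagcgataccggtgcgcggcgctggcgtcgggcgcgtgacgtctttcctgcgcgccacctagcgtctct
NDUFS3: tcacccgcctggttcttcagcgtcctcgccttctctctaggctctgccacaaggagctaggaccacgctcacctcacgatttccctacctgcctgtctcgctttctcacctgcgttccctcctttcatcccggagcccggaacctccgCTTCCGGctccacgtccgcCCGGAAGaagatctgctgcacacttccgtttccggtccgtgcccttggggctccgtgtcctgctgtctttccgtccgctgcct
UQCRC1: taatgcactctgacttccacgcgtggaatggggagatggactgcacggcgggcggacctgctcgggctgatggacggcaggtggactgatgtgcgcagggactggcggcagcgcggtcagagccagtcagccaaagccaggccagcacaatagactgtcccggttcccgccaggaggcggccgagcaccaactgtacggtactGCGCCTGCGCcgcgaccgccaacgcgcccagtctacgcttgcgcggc
COX7C: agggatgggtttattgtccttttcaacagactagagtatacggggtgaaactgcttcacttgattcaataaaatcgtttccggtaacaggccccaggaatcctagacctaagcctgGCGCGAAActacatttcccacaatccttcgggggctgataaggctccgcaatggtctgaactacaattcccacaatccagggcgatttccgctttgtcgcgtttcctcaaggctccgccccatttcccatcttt

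The differences of the respiratory chain genes were spread on both sides of 0, and the 9 genes with the smallest p-values were all lower in the RB-deficient arrays. Of these 9, 6 are among the 20 measured core or textbook subunits, a list drawn up with earlier results of these data known. Of the 79 genes, 42 had a lower mean in the RB-deficient arrays (53.2%, against 58.6% of all genes) and 37 a higher one. Their median difference was −0.10, against −0.21 over all genes. None of the 79 passed limma's adjusted p of 0.05, against 0.00543% of all genes, and the smallest adjusted p was 0.213. At limma's unadjusted p of 0.05, 9 genes were lower (11.4%, against 10.8% of all genes) and 0 were higher (against 2.85% of all genes). These 9 were NDUFV1, NDUFB8 and NDUFA10 of complex I, UQCRC1, UQCRC2 and CYC1 of complex III, COX4I1 of complex IV, and ATP5F1B and ATP5MC2 of complex V. The count was 14 without array RB-deficient 1 (all genes 11.9%) and 4 without RB-deficient 2 (all genes 9.39%). It was 2 without RB-proficient 3 (all genes 5.34%) and 5 after quantile normalization (all genes 7.75%).

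Counted without a test, 14 genes (17.7%, against 15.3% of all genes) had each RB-deficient value below each RB-proficient value. For 2 genes (2.53%, against 7.12% of all genes) each RB-deficient value lay above each RB-proficient value. The lower genes comprise 6 of complex I, 1 of complex II, 2 of complex III, 2 of complex IV and 3 of complex V, and the 2 higher ones are ATP5MK and ATP5MGL of complex V. It is unknown whether the ATP5MK probe set used reads the gene itself or another copy, and its second probe set overlapped. Without array RB-deficient 1 the lower count was 26 (all genes 24.4%). Without array RB-deficient 3 the higher count was 17 (all genes 15.5%), and without RB-proficient 3 it was 8 (all genes 9.75%). The split depended on the scaling: it was 11 lower and 14 higher after quantile normalization (all genes 10.9% and 11.7%), which put the median of all genes at 0.06, and 13 lower and 4 higher after centring each array on its gene median (all genes 12.4% and 9.73%).

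**Figure D1:**
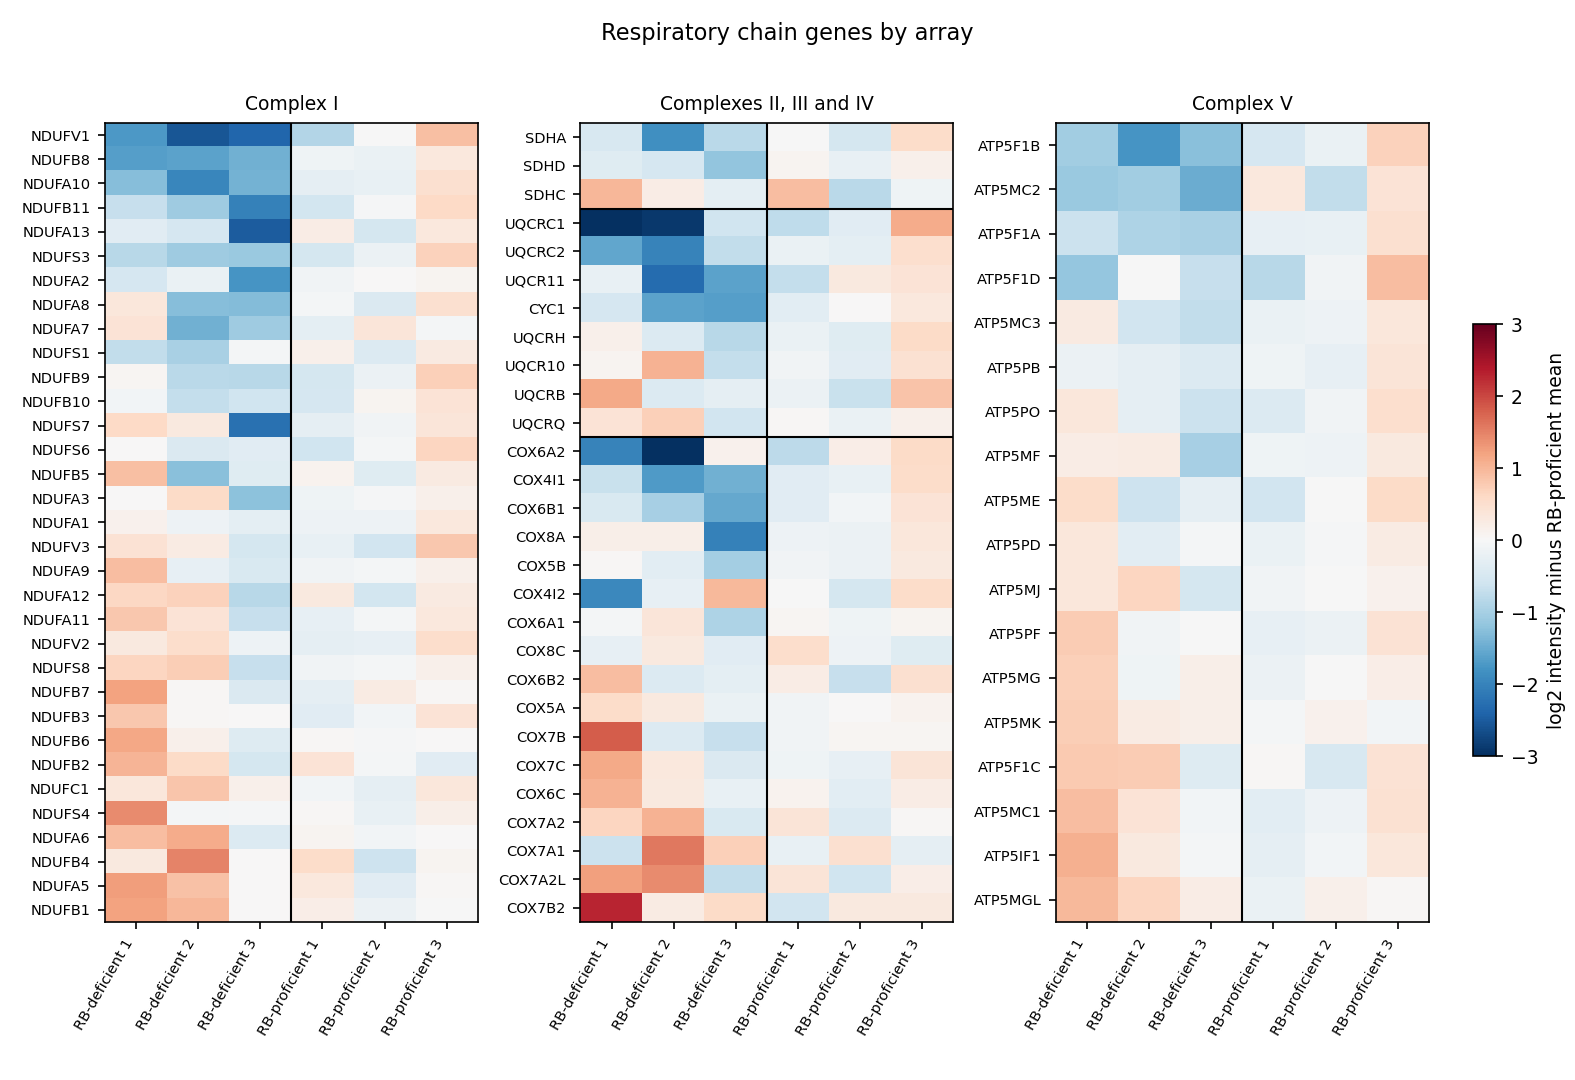
Log2 intensity of each of the 79 genes (rows, by complex and then by difference) in the 6 arrays (columns), as the deviation from the gene's RB-proficient mean, with the colour scale ending at 3 in either direction. The 9 genes with an unadjusted p under 0.05 lie at or near the top of their complexes, and array RB-deficient 3 is the lowest RB-deficient array for 53 of the 79 genes.

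In complex I, the NADH dehydrogenase, 17 of 33 genes were lower and 16 higher in the RB-deficient arrays, with a median difference of −0.10. Of these, 3 were lower at limma's unadjusted p of 0.05 (9.09%, against 10.8% of all genes) and 6 were lower without overlap (18.2%, against 15.3% of all genes). NDUFV1, the subunit that binds NADH and the flavin cofactor, had log2 intensities of 7.04, 6.19 and 6.40 in the RB-deficient arrays, against 7.88, 8.75 and 9.67 in the RB-proficient arrays. The groups did not overlap, the difference was −2.22 (SE 0.59, 4.67-fold lower), and limma's unadjusted p was 0.00391 and its adjusted p 0.213. NDUFB8, an accessory subunit of the membrane arm, had 5.15, 5.20 and 5.37 in the RB-deficient arrays, against 6.68, 6.62 and 7.13 in the RB-proficient arrays. The 3 RB-deficient values lay close together and below all others (difference −1.57, SE 0.47, limma unadjusted p 0.0076, adjusted p 0.232). NDUFA10, another accessory subunit, had 6.52, 5.83 and 6.37 in the RB-deficient arrays, against 7.53, 7.57 and 8.28 in the RB-proficient arrays. It did not overlap either (difference −1.55, SE 0.50, limma unadjusted p 0.0116, adjusted p 0.253).

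The other core subunits of complex I, which carry or surround the iron-sulphur clusters, had smaller differences than NDUFV1. NDUFS3 had 8.03, 7.80 and 7.76 in the RB-deficient arrays, against 8.34, 8.69 and 9.56 in the RB-proficient arrays. The groups did not overlap, with a mean 2.01-fold lower in the RB-deficient arrays (log2 SE 0.51, limma adjusted p 0.418). NDUFS1 had 7.10, 6.85 and 7.76 in the RB-deficient arrays, against 7.97, 7.42 and 8.10 in the RB-proficient arrays, which overlapped (difference −0.59, SE 0.50). NDUFS7 had 5.74, 5.44 and 2.90 in the RB-deficient arrays, against 4.87, 5.04 and 5.50 in the RB-proficient arrays, and its difference was −0.44 (SE 0.75), or 0.46 without array RB-deficient 3. NDUFV2, the partner of NDUFV1 in the flavin module, had 9.27, 9.51 and 8.84 in the RB-deficient arrays, against 8.71, 8.74 and 9.50 in the RB-proficient arrays. The NDUFV2 groups overlapped, with a difference of 0.22 (SE 0.50), and 0.20 in its second probe set. For genes with several probe sets, NDUFV2, SDHC, SDHD and ATP5MK among them, it is unknown whether the brighter one used here reads the gene itself or another copy of it. NDUFS8 had 8.31, 8.40 and 6.97 in the RB-deficient arrays, against 7.56, 7.61 and 7.82 in the RB-proficient arrays, so 2 RB-deficient arrays lay above and 1 below all RB-proficient arrays (difference 0.23, SE 0.54).

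Among the accessory subunits, NDUFB11 (−1.26) and NDUFA2 (−0.83) were the other genes without overlap, both lower in the RB-deficient arrays. NDUFA13, also known as GRIM-19, differed by −1.11 with overlap. At the other end, NDUFB1 had 10.51, 10.29 and 9.30 in the RB-deficient arrays, against 9.49, 9.11 and 9.29 in the RB-proficient arrays. It gave the largest positive difference of complex I (0.74, SE 0.52, limma adjusted p 0.550), with overlap through array RB-deficient 3. NDUFA5 (0.72), NDUFB4 (0.60) and NDUFA6 (0.54) came next. By name group, the median difference was −0.16 over 12 NDUFA genes, 0.27 over 11 NDUFB genes and −0.25 over 9 NDUFS and NDUFV genes.

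Complex II, the succinate dehydrogenase, links the chain to the citric acid cycle, and 3 of its 4 genes were measured, with a median difference of −0.68. SDHA, the flavoprotein that oxidises succinate, had 6.43, 5.07 and 6.09 in the RB-deficient arrays, against 6.88, 6.36 and 7.46 in the RB-proficient arrays. One array of each group overlapped (difference −1.04, SE 0.56, limma adjusted p 0.447). SDHD, a membrane anchor, had 7.35, 7.21 and 6.52 in the RB-deficient arrays, against 7.79, 7.47 and 7.85 in the RB-proficient arrays. It did not overlap (difference −0.68, SE 0.49, limma adjusted p 0.561), and its second probe set differed by −0.59. SDHC, the other anchor, had 8.07, 7.29 and 6.79 in the RB-deficient arrays, against 8.00, 6.25 and 6.95 in the RB-proficient arrays, and overlapped (difference 0.31, SE 0.61). The second probe set listed for SDHC went the other way, with 4.35, 3.72 and 5.44 in the RB-deficient arrays, against 6.40, 5.87 and 6.52 in the RB-proficient arrays (difference −1.76). The direction of SDHC, and with it the median of complex II, therefore depends on the probe set.

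**Figure D2:**
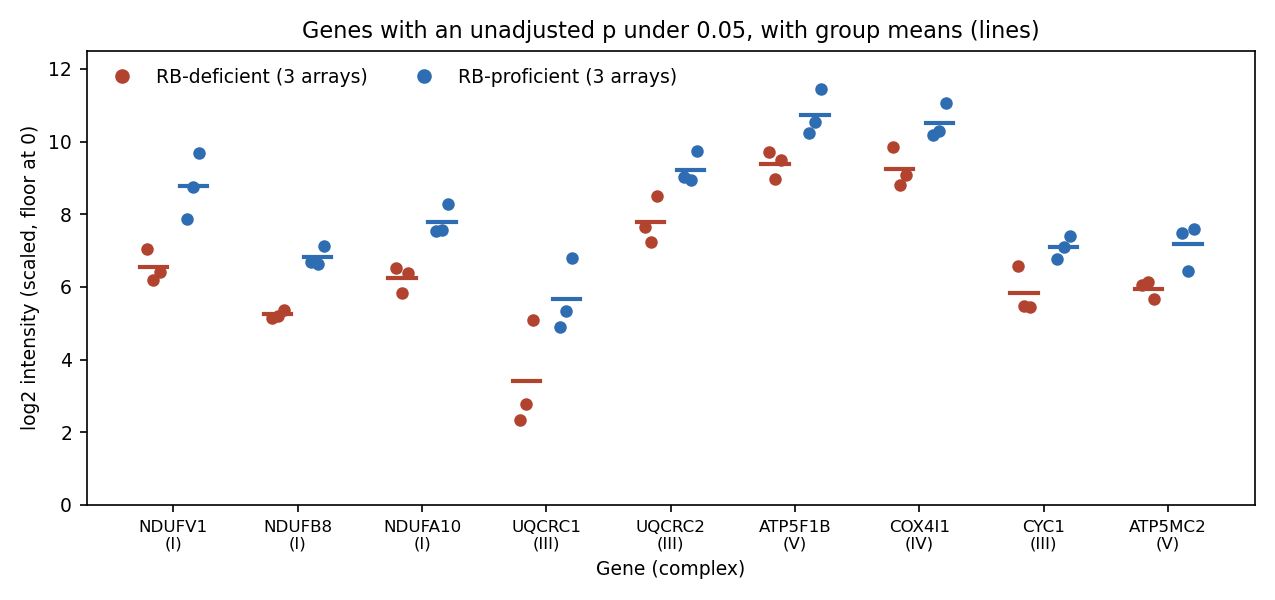
Log2 intensity (vertical axis) in the 3 RB-deficient and 3 RB-proficient arrays of the 9 genes with a limma unadjusted p under 0.05, with group means as lines. NDUFV1, with 6.19 to 7.04 in the RB-deficient arrays and 7.88 to 9.67 in the RB-proficient arrays, has the smallest p, and UQCRC1 is the gene among the 9 whose groups overlap.

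Complex III, the cytochrome bc1 complex, had the lowest median difference of the 5 complexes (−0.81). Of its 8 genes, 5 were lower (62.5%, against 58.6% of all genes) and 3 higher. At limma's unadjusted p of 0.05, 3 were lower (37.5%, against 10.8% of all genes). Lower without overlap were 2 (25%, against 15.3% of all genes). UQCRC1, a core protein on the matrix side, had 2.33, 2.78 and 5.08 in the RB-deficient arrays, against 4.91, 5.33 and 6.79 in the RB-proficient arrays. Its difference of −2.28 (SE 0.80, limma unadjusted p 0.0188, adjusted p 0.279) was the largest of all 79 genes, with overlap of RB-deficient 3 and RB-proficient 1, and it was −1.31 with a floor of 16 on the intensities. UQCRC2, the partner core protein, had 7.66, 7.23 and 8.49 in the RB-deficient arrays, against 9.02, 8.94 and 9.73 in the RB-proficient arrays. All RB-deficient values lay below all RB-proficient values (difference −1.44, SE 0.54, limma unadjusted p 0.0244, adjusted p 0.291). CYC1, cytochrome c1, which hands electrons to cytochrome c, had 6.58, 5.48 and 5.44 in the RB-deficient arrays, against 6.76, 7.09 and 7.41 in the RB-proficient arrays. It did not overlap (difference −1.25, SE 0.53, limma unadjusted p 0.040, adjusted p 0.340).

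The small subunits of complex III were less uniform. UQCR11 differed by −1.38 (SE 0.64, limma unadjusted p 0.0590) and UQCRH, the hinge protein, by −0.37, both with overlap. UQCRB, which contributes to the ubiquinone site, had 6.51, 4.97 and 5.11 in the RB-deficient arrays, against 5.19, 4.69 and 6.24 in the RB-proficient arrays. Its groups overlapped throughout (difference 0.16, SE 0.63). UQCRQ had 10.47, 10.77 and 9.50 in the RB-deficient arrays, against 10.10, 9.87 and 10.22 in the RB-proficient arrays. It had the most positive difference of the complex (0.18, SE 0.52), with 2 RB-deficient arrays above and 1 below all RB-proficient arrays. UQCR10 differed by 0.14.

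Complex IV, the cytochrome c oxidase, was evenly divided, with 8 of 17 genes lower, 9 higher and a median difference of 0.07. COX4I1, the widely expressed form of the regulatory subunit 4, had 9.85, 8.81 and 9.07 in the RB-deficient arrays, against 10.18, 10.28 and 11.07 in the RB-proficient arrays. It was the 1 gene of the complex lower at limma's unadjusted p of 0.05 (5.88%, against 10.8% of all genes). COX4I1 did not overlap (difference −1.27, SE 0.53, limma unadjusted p 0.0386, adjusted p 0.336). COX6B1, which faces the intermembrane space, had no overlap either, with a mean 1.99-fold lower in the RB-deficient arrays (log2 SE 0.51). COX5A had 10.41, 10.14 and 9.66 in the RB-deficient arrays, against 9.75, 9.86 and 9.96 in the RB-proficient arrays (difference 0.21, SE 0.48). COX5B, which binds zinc, had 9.12, 8.78 and 8.06 in the RB-deficient arrays, against 8.97, 8.90 and 9.38 in the RB-proficient arrays (difference −0.44, SE 0.50). Both overlapped, with RB-deficient 3 below all RB-proficient arrays. The remaining 7 genes other than tissue isoforms ran from −0.55 in COX8A to 0.64 in COX7A2L, a factor of supercomplex assembly, and all overlapped.

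The second isoforms of complex IV, which are known mainly from lung, muscle or testis, had a median difference of −0.01 over 6 genes, and all overlapped. COX6A2, the heart and muscle form, had 2.59, 0.99 and 4.72 in the RB-deficient arrays, against 3.82, 4.81 and 5.16 in the RB-proficient arrays (difference −1.83, SE 0.87). COX4I2 had 1.47, 3.16 and 4.37 in the RB-deficient arrays, against 3.38, 2.87 and 3.94 in the RB-proficient arrays (difference −0.40, SE 0.74). For both, RB-deficient 3 was the highest of the RB-deficient arrays. COX7A1 had 2.92, 5.15 and 4.28 in the RB-deficient arrays, against 3.35, 4.06 and 3.31 in the RB-proficient arrays (difference 0.54, SE 0.64). COX7B2 had 5.41, 3.37 and 3.70 in the RB-deficient arrays, against 2.56, 3.41 and 3.41 in the RB-proficient arrays (difference 1.03, SE 0.64), the largest positive value among the 79 genes. Its adjusted p in limma was 0.496, and 1 RB-deficient array lay just below 2 RB-proficient arrays. COX6B2 had 6.26, 4.93 and 5.04 in the RB-deficient arrays, against 5.55, 4.64 and 5.81 in the RB-proficient arrays (difference 0.07, SE 0.58). COX8C had 3.38, 3.92 and 3.29 in the RB-deficient arrays, against 4.15, 3.46 and 3.26 in the RB-proficient arrays (difference −0.10, SE 0.50). Whether these dim probe sets lay above background is unknown.

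**Figure D3:**
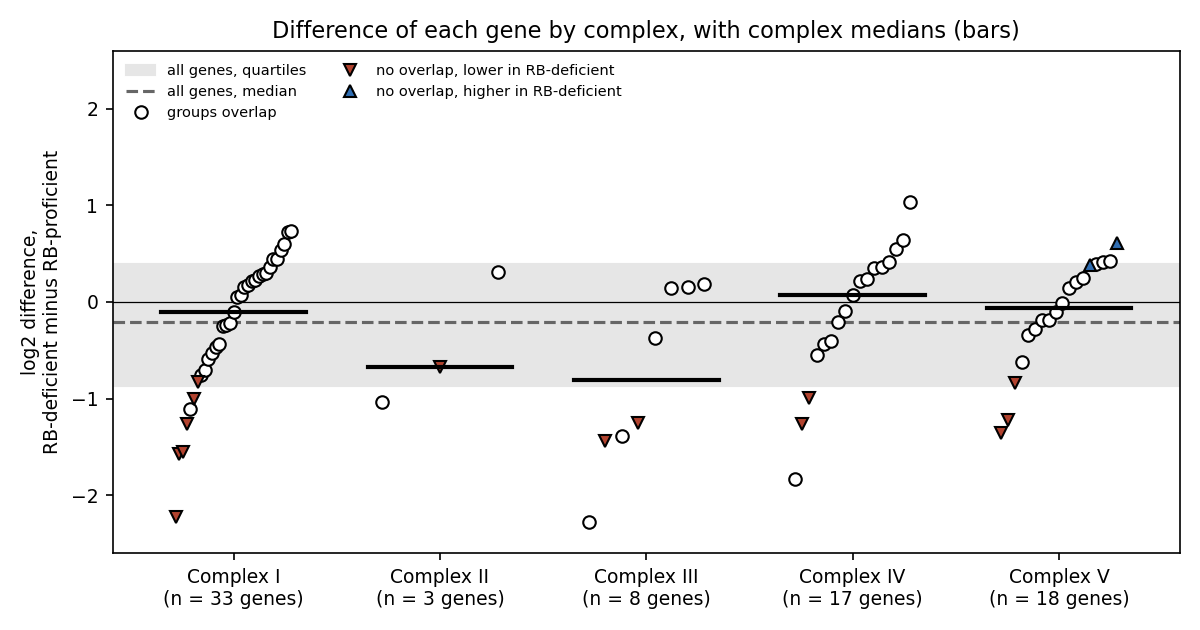
Log2 difference of each gene (RB-deficient minus RB-proficient, vertical axis) by complex, with complex medians as bars and the quartiles and median of all 18417 genes as a grey band and dashed line. The medians are −0.10, −0.68, −0.81, 0.07 and −0.06 for complexes I to V, and filled triangles mark the 14 lower and 2 higher genes without overlap.

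Complex V, the ATP synthase, had 10 of 18 genes lower, 8 higher and a median difference of −0.06. In its catalytic head, ATP5F1B, the beta subunit with the catalytic sites, had 9.70, 8.97 and 9.49 in the RB-deficient arrays, against 10.23, 10.55 and 11.44 in the RB-proficient arrays. The groups did not overlap (difference −1.35, SE 0.53, limma unadjusted p 0.0292, adjusted p 0.306). ATP5F1A, the alpha subunit, had 9.93, 9.65 and 9.61 in the RB-deficient arrays, against 10.32, 10.34 and 11.05 in the RB-proficient arrays. It did not overlap either (difference −0.84, SE 0.48, limma adjusted p 0.468). ATP5F1C, the gamma subunit that turns inside the head, had 9.20, 9.18 and 8.02 in the RB-deficient arrays, against 8.45, 7.93 and 8.84 in the RB-proficient arrays, with 2 RB-deficient arrays above all RB-proficient arrays (difference 0.39, SE 0.54). ATP5F1D, the delta subunit, differed by −0.62 with overlap.

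The c-ring, the rotor in the membrane, is built from 1 protein that 3 genes encode. ATP5MC2 had 6.05, 6.13 and 5.68 in the RB-deficient arrays, against 7.49, 6.43 and 7.59 in the RB-proficient arrays. It did not overlap (difference −1.22, SE 0.52, limma unadjusted p 0.0423, adjusted p 0.347). ATP5MC3 differed by −0.34 and ATP5MC1 by 0.41, both with overlap, and whether probes of these related genes read each other's transcripts was not checked. In the stalk, ATP5PO, which joins it to the head, had 10.27, 9.67 and 9.29 in the RB-deficient arrays, against 9.53, 9.83 and 10.44 in the RB-proficient arrays (difference −0.19, SE 0.52). ATP5PB, ATP5PD and ATP5PF differed by −0.28, −0.01 and 0.21. ATP5MGL, a gene related to the membrane subunit g, had 8.16, 7.83 and 7.43 in the RB-deficient arrays, against 7.00, 7.35 and 7.23 in the RB-proficient arrays. All its RB-deficient values were the higher ones (difference 0.61, SE 0.48, limma adjusted p 0.589). Whether its probe set reads transcripts of ATP5MG, the gene of subunit g (0.25, with overlap), was not checked. ATP5MK (0.39, SE 0.47) also showed no overlap with higher RB-deficient values, and its second probe set differed by 0.40. ATP5IF1, the inhibitor that stops ATP hydrolysis, differed by 0.43 with overlap.

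The core and textbook subunits lay mostly on the lower side and the remaining genes on both sides. Of 23 such subunits listed, 20 were measured, and 14 of them were lower in the RB-deficient arrays, 8 without overlap (40.0%, against 15.3% of all genes), with a median difference of −0.64. Of the other 59 genes, 28 were lower, 6 without overlap (10.2%), with a median of 0.07. The core median lay between −0.89 and −0.53 with any single array left out and was −0.37 after quantile normalization, whereas the median of the others ran from −0.19 without RB-deficient 1 to 0.29 without RB-deficient 3. The split was not tested, since the list was drawn up with earlier results of these data known. The list is wider than the redox and catalytic subunits: it also holds, among others, the anchors SDHC and SDHD and the regulatory COX4I1.

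The median SD per gene was 0.64 in the RB-deficient arrays and 0.39 in the RB-proficient arrays, against 0.84 and 0.40 over all genes, and 61 of the 79 genes (77.2%, against 81.0% of all genes) had the larger SD in the RB-deficient arrays. As deviations from the RB-proficient mean, the medians of the 79 genes were 0.33, −0.14 and −0.53 in arrays RB-deficient 1 to 3, against −0.14, −0.17 and 0.32 in RB-proficient 1 to 3. Over all genes the medians were −0.14, −0.37 and −0.14 in arrays RB-deficient 1 to 3. Array RB-deficient 3 was the lowest RB-deficient array for 53 genes (67.1%, against 28.1% of all genes), RB-deficient 2 for 21 and RB-deficient 1 for 5. In RB-deficient 1, 20 of the 79 genes lay below all RB-proficient values and 35 above them, against 7749 and 6476 of all 18417 genes. The counts were 32 and 24 in RB-deficient 2, against 8837 and 5604 of all genes. In RB-deficient 3 they were 48 and 5, against 6924 and 4702 of all genes.

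By complex, RB-deficient 3 was the lowest of the RB-deficient arrays in all but complex III. Their medians in arrays RB-deficient 1 to 3 were 0.34, −0.07 and −0.53 for complex I, 0.19, 0.25 and −0.42 for complex IV, and 0.33, −0.12 and −0.39 for complex V. Complex II lay below the RB-proficient mean in all 3 RB-deficient arrays (−0.35, −0.49 and −0.81), and so did complex III (−0.07, −1.01 and −0.72). In RB-proficient 1 to 3 the medians were 0.08, −0.54 and 0.15 for complex II and −0.21, −0.32 and 0.48 for complex III. By this measure the groups overlapped in both complexes. With single arrays left out, the median difference of the 79 genes ranged from −0.33 without RB-deficient 1 to 0.23 without RB-deficient 3, and it was −0.53 with RB-deficient 3 as the only RB-deficient array. The median of complex III lay between −0.999 and −0.59 with single arrays left out and that of complex II between −0.84 and −0.42, while complexes I, IV and V changed sign with single arrays left out. After quantile normalization the medians of complexes I to V were 0.31, −0.34, −0.54, 0.21 and 0.26.

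**Figure D4:**
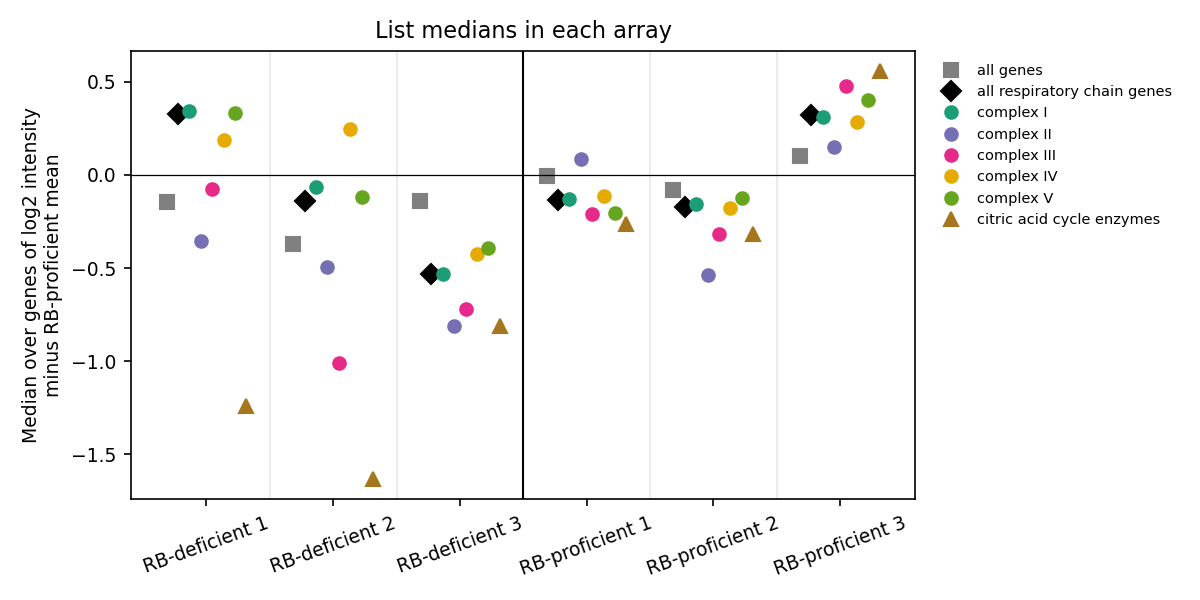
Median over the genes of each list of the log2 intensity minus the gene's RB-proficient mean (vertical axis) in each of the 6 arrays. The 79 respiratory chain genes lie at 0.33, −0.14 and −0.53 in arrays RB-deficient 1 to 3. The citric acid cycle list, which includes pyruvate dehydrogenase genes, lies at −1.24, −1.63 and −0.81.

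Respiratory chain genes were among the brighter probe sets, with a median brightness percentile of 92.2 among all genes and none at the floor in any array. In the brightest 10% of genes, 47 were members, and 21 of them were lower (44.7%, against 73.5% of all genes of that brightness), with a median difference of 0.15, against −0.37 for all such genes. Lower without overlap were 12.8% of these 47 genes, against 22.3% of all genes in the brightest 10%. In the brighter 50% of genes the shares were 19.7% of 71 members and 19.2% of all genes. The differences between these shares were not tested.

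Genes that build or feed the chain were read from separate lists, chosen with earlier results of these data known, so their shares were not tested. The citric acid cycle list, of genes that supply NADH and succinate, has 16 genes. It also holds the pyruvate dehydrogenase genes PDHA1, PDHB and DLAT, of which PDHB did not overlap. Of the list, 14 genes were measured and 13 were lower in the RB-deficient arrays. Of these 13, 9 did not overlap (64.3% of those measured, against 15.3% of all genes). The median difference of these enzymes was −1.21. At limma's unadjusted p of 0.05, 6 were lower (42.9%, against 10.8% of all genes) and 0 were higher (against 2.85% of all genes). The adjusted p was passed by 0 of them. OGDH, of the oxoglutarate dehydrogenase complex, had 3.18, 3.57 and 2.80 in the RB-deficient arrays, against 5.67, 5.41 and 7.00 in the RB-proficient arrays. All 3 RB-deficient values lay well below (difference −2.84, SE 0.57, limma adjusted p 0.206). IDH3G, a subunit of isocitrate dehydrogenase, differed by −3.15 (SE 0.65, limma adjusted p 0.206) and MDH2, the mitochondrial malate dehydrogenase, by −2.06 (SE 0.57, limma adjusted p 0.217), both without overlap. OGDH in all RB-deficient arrays and IDH3G in RB-deficient 1 and 3 lay under an intensity of 16, so these sizes depend on the floor. With a floor of 16 the list median was also −1.21. The list median lay between −1.51 and −0.83 with single arrays left out. After quantile normalization it was −0.93, with 8 genes (57.1%, against 10.9% of all genes) then lower without overlap.

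Electron carriers and ubiquinone synthesis gave 16 of 17 genes lower, 5 of them at limma's unadjusted p of 0.05 and 5 without overlap. These are 94.1%, 29.4% and 29.4% of the list, against 58.6%, 10.8% and 15.3% of all genes, and the median difference was −0.93. After quantile normalization 13 of the 17 were lower. Without array RB-deficient 1 the no-overlap count was 9 (52.9%, against 24.4% of all genes). COQ4, COQ6 and COQ8A, which take part in making ubiquinone, differed by −2.76, −2.66 and −2.41, each without overlap and with a limma adjusted p of 0.213. COQ4 was at the floor in RB-deficient 1, and COQ6 and COQ8A also had RB-deficient values under an intensity of 16, so these sizes depend on the floor. With a floor of 16 the list median was −0.68. CYCS, cytochrome c itself, named after its value was seen, differed by −0.03 (SE 0.52) and overlapped.

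Assembly factors, which help to put the complexes together without staying in them, were measured for complex I (15 of 16), complexes II and III (9 of 10), complex IV (17 of 22) and complex V (3 of 3). Their median differences were −0.54, −0.33, −0.21 and 0.24. With single arrays left out these ran from −0.78 (without RB-deficient 1) to −0.33 (without RB-proficient 3), from −0.66 (without RB-deficient 3) to −0.16 (without RB-proficient 3), from −0.52 (without RB-deficient 1) to 0.099 (without RB-deficient 3), and from −0.097 (without RB-proficient 1) to 0.74 (without RB-proficient 3). The counts lower at limma's unadjusted p of 0.05 were 2, 1, 5 and 1 (13.3%, 11.1%, 29.4% and 33.3% of each list, against 10.8% of all genes). Those lower without overlap were 5, 1, 5 and 1 (33.3%, 11.1%, 29.4% and 33.3%, against 15.3% of all genes), with 0 higher by either count. For complex I the no-overlap count was 2 after quantile normalization (13.3%, against 10.9% of all genes). NUBPL, which delivers iron-sulphur clusters to complex I, had the smallest p of its list and differed by −2.59 (SE 0.89, limma adjusted p 0.275) with overlap. UQCC1, of complex III assembly, differed by −2.55 (SE 0.97), with 1 RB-deficient array at the floor. TACO1, a translational activator of the mitochondrial COX1 mRNA, differed by −1.83 (SE 0.60, limma adjusted p 0.258), COX11 by −1.63 and COX15, of haem A synthesis, by −1.75, all without overlap. ATPAF2, which assists the alpha subunit of the ATP synthase head, differed by −2.11 (SE 0.51, limma adjusted p 0.209), without overlap. NUBPL, UQCC1, COX11, COX15 and ATPAF2 had RB-deficient values under an intensity of 16, so their sizes depend on the floor.

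Regulators of mitochondrial biogenesis had a median difference of 0.05, which ran from −0.077 to 0.22 with single arrays left out. Of the 18 genes, 8 were lower, 1 of them at limma's unadjusted p of 0.05 (5.56%, against 10.8% of all genes). That gene was TFB1M, a mitochondrial rRNA methyltransferase, with 4.34, 1.76 and 4.77 in the RB-deficient arrays, against 5.51, 5.36 and 5.83 in the RB-proficient arrays (difference −1.95, SE 0.77, limma adjusted p 0.310). PPRC1 (−0.99) and GABPA (−0.74), a DNA-binding subunit of GABP, overlapped. The list of carriers for adenine nucleotides and phosphate also holds the uncoupling protein genes UCP1, UCP2 and UCP3 and the channel genes VDAC1, VDAC2 and VDAC3. Its median is therefore not that of the carriers alone. Of its 10 measured genes, 4 were lower and 0 passed limma's unadjusted p in either direction. The list median was 0.30. It was −0.023 without RB-deficient 1, 0.070 without RB-deficient 2, 0.068 without RB-proficient 1 and −0.43 without the dimmest 50% of genes. SLC25A3, the phosphate carrier that serves the ATP synthase, differed by −1.12 (SE 0.53) without overlap, and the uncoupling protein genes UCP1 (1.22) and UCP2 (0.86) lay on the other side, UCP1 without overlap.

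**Figure D5:**
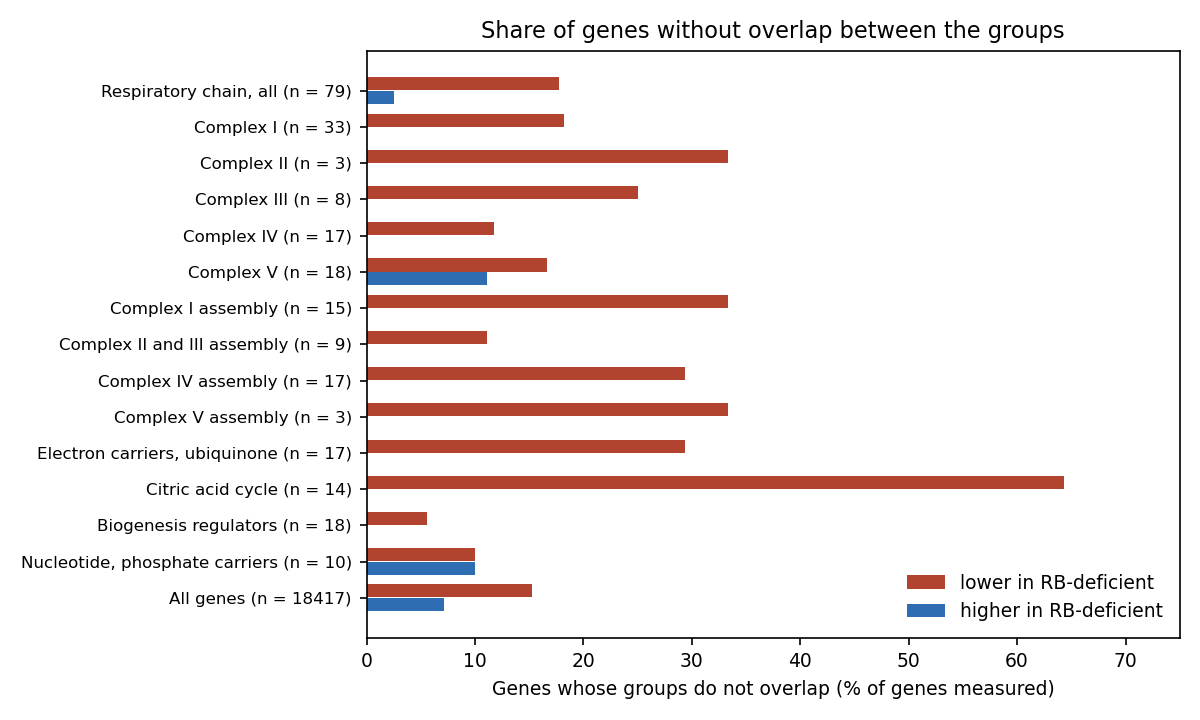
Share of the measured genes of each list (horizontal axis, %) whose RB-deficient values all lie below (upper bar) or above (lower bar) all RB-proficient values. The citric acid cycle list, which includes pyruvate dehydrogenase genes, reaches 64.3% lower, the 79 respiratory chain genes 17.7% and all genes 15.3%. The carrier list includes uncoupling protein and VDAC genes.

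Of the promoters of the 9 genes lower at limma's unadjusted p of 0.05, 7 were available, and the NRF1 motif occurred in 1 (UQCRC1, shown above), the ETS and E2F motifs in 0. Among the 12 available promoters of genes lower without overlap, 1 held the NRF1 motif, 3 the ETS motif and 0 the E2F motif, and among the 32 of genes with a difference above 0 the counts were 6, 4 and 3. Nothing about the factors follows from these letters.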

How the data were processed

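Expression was measured on 6 single-channel Affymetrix arrays, 3 labelled RB-deficient and 3 RB-proficient. Amplification used the WT-Ovation Pico kit and labelling used biotin, per the labels' protocols. Affymetrix Expression Console 1.1 was the authors' software, per the submitters' processing notes. How probes were summarised and arrays normalized is not given in the sources used here. Deposited values are linear intensities, 1 per probe set and array, with array medians from 21.4 to 28.0. The number of arrays limits the precision.

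Arrays were scaled to equal medians over all probe sets, with a floor of 1 before log2. Of 33297 probe sets, 19460 had 1 gene symbol in the platform annotation, 1754 had several and 12083 were not listed. Where a gene had several, as for 7 of the 79 genes described, the brightest on average was used. The groups' log2 values were fitted in R 4.3.3 by limma 3.58.1 (lmFit, eBayes) without covariates, two-sided, with Benjamini-Hochberg adjustment across 18417 genes and a threshold of 0.05. The fit was tested on simulated data. Detection calls were not used. Same-numbered arrays did not deviate together (correlations −0.12, 0.07 and −0.11), so no pairing was used, and no batch is given in the labels. Any member may be named. Values per array are given for genes with an unadjusted p under 0.05, core subunits, second isoforms and the extremes of each complex. Of each other list, values are given for up to 3 genes with the smallest p, and for CYCS and EPCAM in addition. The members and lists were chosen with earlier results of these data known. All 79 symbols matched RefSeq by gene number. Alternatives were other scalings, floors and filters, the mean of probe sets, eBayes with trend and robust, array weights, a replicate block and arrays left out.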

Additional observations from a re-analysis of the deposited data

How the results depend on the processing

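Under 18 alternatives, none of the 79 genes passed limma's adjusted p except 1 with an offset of 16 in place of the floor, NDUFV1 (difference −2.05, adjusted p 0.0416). The 9 genes lower at the unadjusted p became 5 after quantile normalization, 16 with the offset, 15 with eBayes with trend and robust, 16 without arrays RB-deficient 1 and 2, 2 to 14 with single arrays left out, and 6 with the replicate block, which changed no other count. The 0 higher genes became 1 with a floor of 16 and 0 to 2 with single arrays left out. The 14 lower genes without overlap became 48 without RB-deficient 1 and 2 (37.6% of all genes) and 14 to 26 with single arrays left out. The 2 higher ones became 14 after quantile normalization, 4 after centring, 5 without RB-deficient 1 and 2, and 2 to 17 with single arrays left out.

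The median of complex I lay between −0.33 and 0.34 with single arrays left out, that of complex II was −0.34 after quantile normalization and between −0.84 and −0.42 with single arrays left out, and that of complex IV was −0.42 without RB-deficient 1 and 2. In that setting the lone RB-deficient array was assumed to vary like the other group. The difference of each of the 9 genes kept its sign under every alternative that could be run for it.

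Of 564 values of the 32 genes with array values, 33 had the other sign, all in genes past no threshold. Without RB-deficient 1 and 2 these were ATP5F1C (−0.38), COX4I2 (0.97), COX5A (−0.20), COX6A2 (0.12), COX6B2 (−0.30), NDUFS8 (−0.69), NDUFV2 (−0.15), SDHC (−0.28), UQCRB (−0.26) and UQCRQ (−0.57). After quantile normalization they were ATP5PO (0.10), COX4I2 (0.21) and COX8C (0.14), and after centring COX8C (0.039). With array weights they were COX4I2 (0.10), COX6B2 (−0.081) and SDHC (−0.040), with a floor of 16 COX4I2 (0.12), and with the mean of probe sets SDHC (−0.72). With single arrays left out, values ran from −0.45 to 0.063 in ATP5PO, −1.09 to 0.37 in COX4I2, −0.35 to 0.31 in COX6B2, −0.29 to 0.17 in COX8C, −0.96 to 0.46 in NDUFS7, −0.021 to 0.69 in NDUFS8, −0.10 to 0.78 in SDHC, −0.33 to 0.59 in UQCRB and −0.080 to 0.56 in UQCRQ. The cause of these changes was not tested. Moving NDUFA4 to complex IV gave no value, since the annotation lists it as COXFA4 (difference 0.01), outside the rule. Filters on dim genes removed 5 and 8 of the 79 genes. Detection calls were not used, so signal over background limits the dim genes by an unknown amount.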
